A study of Mus musculus with 10 samples.

Results

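RBFOX2 iCLIP clusters that lie at the beginning of expressed genes are described here for V6.5, a mouse embryonic stem (ES) cell line. A cluster was taken when it shared bases with exactly 1 locus of the expression table, that locus was at least 5 kb long with a control mean of at least 1 FPKM (sequenced fragments per kilobase of RNA, relative to library size), and the cluster summit lay within 2 kb of the locus end that is 5′ on the strand of the cluster. This rule found 887 clusters, called start clusters below, of 35639 in the list (2.49%). They make up 3.57% of the 24864 clusters that lie on exactly 1 such expressed locus. They fall in 723 of 10190 expressed loci of that length (7.1%), or in 13.5% of the 5358 such loci that hold any of these 24864 clusters. The 6071 clusters on 2 or more loci are not counted here or below as clusters of a locus. A locus said to have no cluster, or no other cluster, may therefore still share 1 of them. The rule used position and the control expression level, so neither is a finding about the start clusters.

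For iCLIP, V6.5 cells carried a doxycycline-inducible lentiviral human RBFOX2, either with a FLAG-HA tag (FHFOX2) or without a tag (UntagFOX2). Both lines were selected in hygromycin at 150 µg/ml for 6 days, induced with 1 µg/ml doxycycline for 24 hours and crosslinked with 150 mJ/cm2, and RNA was recovered after serial FLAG and HA immunoprecipitation. The labels list 1 tagged and 1 untagged library, so no cluster value has a replicate, and the bound protein is an induced human one beside the endogenous mouse Rbfox2. The untagged library received 7 PCR cycles beyond the 16 that both received. For RNA-seq, V6.5 cells carried lentiviral hairpins against luciferase (shLuc), GFP (shGFP) or Rbfox2 (shFox2-1 and shFox2-2) and were harvested after 3 days of puromycin at 1 µg/ml and 24 hours without it. Each hairpin was infected in duplicate, and the deposited table holds 1 pooled FPKM with a lower and an upper bound per hairpin.

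RBFOX2 is an RNA-binding protein with a single RNA recognition motif that binds the letters GCATG, most often inside introns close to alternative exons, and thereby changes whether the exon is included. iCLIP crosslinks the protein to RNA in living cells by ultraviolet light and sequences the short fragments that stay attached, so a cluster marks a stretch of RNA rather than of DNA. The first bases of a gene give rise to the 5′ untranslated region and to the beginning of the first intron, which in mammals is often long. The title of the study places RBFOX2 in networks in which RNA-binding proteins act on their own and each other's transcripts.

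Rbfox2, the gene that the hairpins target and that the table lists under its older name Rbm9, was at 24.7 FPKM in shLuc and 23.3 in shGFP, and at 8.56 in shFox2-1 and 7.21 in shFox2-2. The knockdown bounds (7.14 to 9.98 and 5.59 to 8.82) did not reach the control bounds (21.9 to 27.4 and 20.6 to 26.0). Its deposited status was LOWDATA in shLuc and shFox2-2, and OK in shGFP and shFox2-1. The knockdown values were 35.69% and 30.04% of the control mean. No start cluster lay on Rbfox2, which held 50 clusters elsewhere. Of the ES cell markers, Pou5f1 was between 267.6 and 336.4 FPKM and Zfp42 between 109.6 and 188.8 over the 4 hairpins. The highest level of any fibroblast, neural, mesoderm, endoderm or trophoblast marker was 5.204 FPKM, for the neural gene Pax6 in shLuc. Depth is unknown, because the table gives FPKM without counts.

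The cluster sequences themselves were not used here, because the clusters are placed on mm9 and no genome of that build was at hand. For genes with a cluster that reached into the first 50 bases of the locus, the letters at the annotated RefSeq start (build GRCm38.p6) could be read instead. There were 23 such genes, of which 19 had a RefSeq start sequence. The motif GCATG, searched on the transcribed strand in the first 50 bases, was in 3 of these 19 (15.8%, exact 95% interval 3.38 to 39.6). Among all genes with a start cluster the share was 3.36%, and among all 27025 RefSeq genes it was 3.56%. The annotated start of a gene need not be the end of the mm9 locus, so the letters read need not lie under the cluster. As examples, the 3 sequences with the motif and 2 without it are shown in transcribed direction over 30 bases, with GCATG in capitals.
Denr: ccgggaagaggagttGCATGtgtcgcttca
Ndufb8: gcttttgcGCATGtgcagagtgaaccgcgg
Prpf40b: tctgaggctctgGCATGgtaacgtccccgc
Actr3: gggagcgatcgcggcctggggcctggcctg
Fam189b: ccacgcaccatccaccatcccccacctcca

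The first stretch is at chr5:123907295-123907324 on the plus strand in GRCm38.p6 and belongs to Denr, a factor in ribosome recycling and translation reinitiation. Its motif begins at base 36 of the annotated transcript, and the cluster, with a coverage of 325, spans bases -10 to 67 of the mm9 locus. Its fold over the untagged library was only 1.45. The second is at chr19:44555413-44555442 on the minus strand and belongs to Ndufb8, a subunit of respiratory complex I. Its motif begins at base 9, inside a cluster of coverage 225 at bases -17 to 80 that was absent from the untagged library. The third is at chr15:99295257-99295286 on the plus strand and belongs to Prpf40b, a splicing factor. Its motif begins at base 29, before the cluster, which has a coverage of 513 at bases 41 to 161.

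These positions set an mm9 locus beside a GRCm38.p6 gene model, and the 2 need not begin at the same base. The locus of Denr is 21558 bases long against 21628 for the RefSeq gene, and that of Prpf40b 21599 against 21943. For Ndufb8 the lengths differ more, with 5162 against 6872 bases. Among the 19 genes the gap was far wider for some without the motif, such as Sgk1 (5197 against 117720) and Trerf1 (45501 against 221384). For Gng7 and Rheb the lengths were equal. The motif share over the 19 thus includes starts that may lie far from the cluster. The 2 sequences without GCATG come from Actr3, an actin-nucleating Arp2/3 subunit, at chr1:125435698-125435727 on the minus strand (cluster coverage 260), and from Fam189b at chr3:89183143-89183172 on the plus strand (coverage 997). Over the 300 bases around the RefSeq start, median GC was 62.7% for genes with a start cluster, 62.7% for expressed genes with clusters elsewhere and 61.3% for expressed genes with none. It was 52.7% over all RefSeq genes. In the same 300 bases, searched on both strands, GCATG was present in 27.4% of promoters of genes with a start cluster, in 28.2% of those with clusters elsewhere and in 26.5% of those with none. A match is a description of letters and does not show a binding site.

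Start clusters were thinnest in the first bases of the locus and became denser over the next kilobases. For this measure each locus was given the strand of its own gene's clusters, which left 5072 loci, and clusters were divided by the bases that no other locus shares. In the first 250 bases there were 47 clusters, or 0.0371 per kb (95% Poisson interval 0.0272 to 0.0493). Between 250 and 500 bases the density was 0.0694 per kb, and between 1750 and 2000 bases it was 0.106 (0.0893 to 0.126). It reached 0.127 per kb (0.113 to 0.141) between 2500 and 3000 bases, and at 9500 to 10000 bases it was 0.0879. Bins beyond 3000 bases leave out loci too short for them, so they cover fewer and longer loci. The bases counted fell from 2536 kb at 2500 to 3000 bases to 2185 kb at 9500 to 10000. The lowest density was thus in the first 250 bases, and its interval did not overlap that of any later bin.

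**Figure D1:**
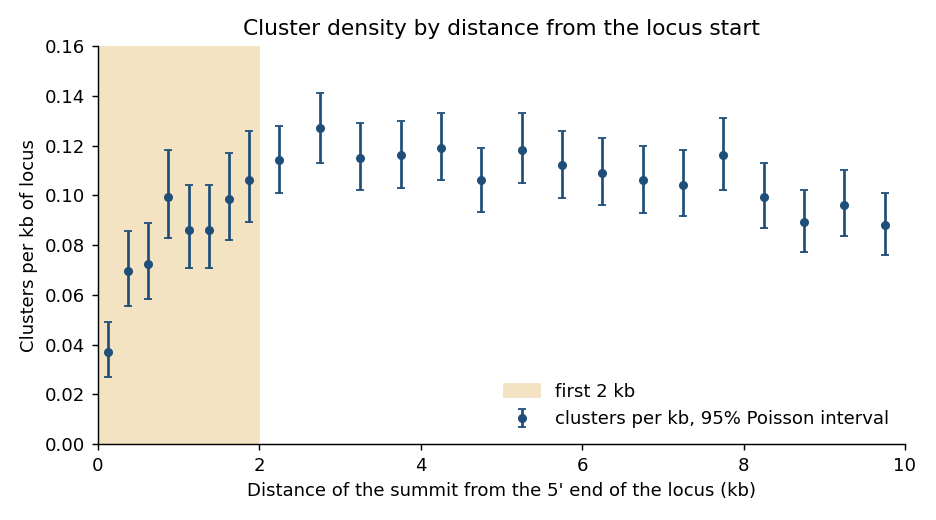
Clusters per kb of locus (vertical axis) by distance of the cluster summit from the 5′ end of the locus in kb (horizontal axis). Bins up to 3 kb cover 5072 loci, and later bins only the loci long enough for them. Points are densities, bars are 95% Poisson intervals that cover counting error only, and the shaded band is the first 2 kb; the points rise from 0.0371 in the first 250 bases to 0.127 between 2.5 and 3 kb.

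The interior was taken as the bases over 2 kb from both locus ends. Whether the first 2 kb as a whole hold fewer clusters than it depended on the loci included and on their weighting. Pooled over all 5072 loci, the start held 0.082 clusters per kb and the interior 0.0787, a ratio of 1.04 (95% interval 0.971 to 1.12). When the clusters of each locus, leaving out its last 2 kb, were instead spread evenly over that locus, 1113 clusters were expected in the first 2 kb and 831 were found, a ratio of 0.747 (0.697 to 0.799). This second measure was chosen after the pooled value had been seen. With the RefSeq strand instead, over 7325 loci that include loci without clusters, the pooled ratio was 0.84 (0.778 to 0.907). The 5072 loci, in contrast, were kept because they hold a cluster of their own gene. What moved the ratio was not tested. Interior bases come mostly from long loci, and the pooled ratio fell to 0.901 in loci of at least 20 kb. The last 2 kb held 0.246 clusters per kb.

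Within single loci the shortfall was deepest in the first 500 bases and extended to 1500 bases. In the first 500 bases 135 clusters were found where even spreading gave 278.2, a ratio of 0.485 (0.407 to 0.574). From 500 to 1000 and from 1000 to 1500 bases the ratio was 0.784 in both (0.683 to 0.895). From 1500 to 2000 bases it was 0.934 (0.824 to 1.06), and from 2000 to 4000 bases 1.08 (1.02 to 1.15). Without Dgcr8, the locus with the most start clusters, the ratio over the first 2 kb was 0.732 and over 2000 to 4000 bases 1.03. These intervals treat clusters as independent, and clusters of 1 locus share a transcript.

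The 2 kb limit itself did not fall at a break in the data. In the last 50 bases inside it lay 35 clusters with a median coverage of 330, and in the first 50 bases outside it lay 21 with a median coverage of 290.

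Of the 887 start clusters, 415 were on the plus strand and 472 on the minus strand. The deposited gene ID was that of the locus for 815 of them (91.9%), against 93.0% of the 21308 interior clusters. Another 72 carried a different or unmatched ID. Some of these differ in name only, such as Cpne1 and Rbm12 on a locus listed under both names and Tra2b on Sfrs10. The share of 91.9% thus understates the match. Of 696 start clusters on loci with a RefSeq strand, 8 lay on the opposite strand. Some IDs recur over unrelated loci: Galnt2, a glycosyltransferase gene, was the ID of 7 start clusters in 5 loci (Banp, Cdk10, Cdt1, Spg7 and Usp10). Overlap with another cluster on the same strand was seen for 68 start clusters (7.67%, against 7.72% of interior clusters), and merging overlaps left 846 regions. In 150 loci the start cluster or clusters were the only ones counted, and 529 loci held a start and an interior cluster.

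The loci themselves can be set beside the other expressed loci. Median control expression was 14.2 FPKM for loci with a start cluster, 9.56 for loci with clusters elsewhere only and 5.45 for loci with none. Median locus length was 24.0, 33.9 and 21.6 kb in the same order. A more abundant RNA gives more fragments at the same occupancy, and the part of expression level in these shares was not tested.

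Coverage is the authors' value for the signal of a cluster in the tagged library. It ranged from 149 to 74840 over the start clusters, with a median of 336 and quartiles of 220 and 706. Interior clusters had a median of 371 with quartiles of 226 and 824. The 95% intervals of the medians were 317 to 363 for start clusters and 365 to 375 for interior clusters. They treat clusters as independent although all come from the same library, so they do not test a difference. When only loci that hold both start and interior clusters were kept, the median coverage was 350 for start clusters and 370 for interior clusters. A coverage of 10000 or more was reached by 14 start clusters (1.58%) and by 511 interior clusters (2.4%). The 10 highest start clusters held 33.9% of all start coverage.

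Within the 529 loci that hold both kinds, the median start coverage was higher than the median interior coverage in 238, lower in 290 and equal in 1, with a median ratio of 0.916. By distance, the median was 263.5 in the first 500 bases, 336 from 500 to 1000, 394 from 1000 to 1500 and 349 from 1500 to 2000. Across the 887 clusters, which share 1 library, coverage followed cluster width (Spearman rho 0.82) and hardly followed distance (0.062). Across the 723 loci, rho between the highest start coverage and control expression was 0.11. These correlations are descriptions without a test.

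Fold over the untagged library had a median of 10.04 among start clusters and 15.4 among interior clusters, when clusters absent from the untagged library were ranked as highest. In loci that hold both kinds the medians were 9.3 and 9.16. Absent clusters numbered 390 among the start clusters (44.0%, Wilson 95% interval 40.7 to 47.3) and were 46.6% of interior clusters (45.9 to 47.2). Among clusters with a finite fold, the medians were 3.47 and 3.97. A fold under 2 was listed for 107 start clusters (12.1%) and for 9.7% of interior ones. Clusters absent from the untagged library were mostly small, with a median coverage of 261 at the start and 259 in the interior.

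**Figure D2:**
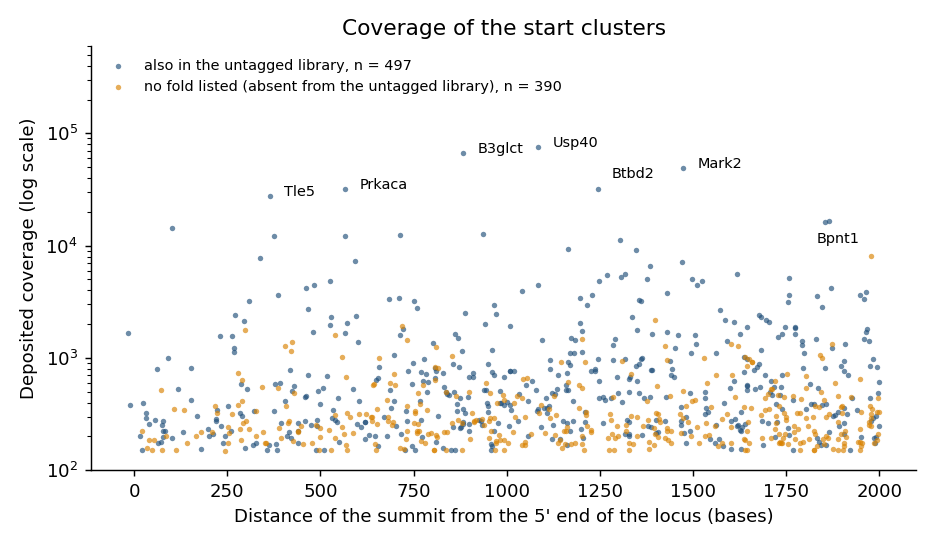
Deposited coverage on a log scale (vertical axis) by summit distance in bases from the 5′ end of the locus (horizontal axis) for the 887 start clusters, each a point. Blue marks 497 clusters with a fold over the untagged library and orange 390 absent from it; named points are labelled by locus, most clusters lie below 1000, and the orange points stay low except Bpnt1 at 8105.

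The clusters of highest coverage were broader than most, beside a median width of 85 bases over the start clusters, and were also present in the untagged library. The highest, at chr1:89837098-89838218 on the plus strand, had a coverage of 74840 and a fold of 6.24. It lies in the locus of Usp40, a ubiquitin-specific protease, but carries the ID of the neighbouring diacylglycerol kinase gene Dgkd, and RefSeq places Usp40 on the minus strand. The next Dgkd cluster in that locus had a coverage of 14288. On the strand of Usp40 itself the locus had start clusters of coverage 3427 and 443. Both Dgkd clusters are members by the position rule, and on the RefSeq strand of Usp40 they are at its far end.

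The highest start cluster with its own gene's ID was in B3glct, which encodes a glucosyltransferase of the secretory pathway. It spans chr5:150481168-150482092 on the plus strand, with a coverage of 66146, a fold of 8.33 and a summit 882 bases from the start. The only other cluster of that locus had a coverage of 259, and B3glct was expressed at 2.53 and 2.56 FPKM in the control hairpins. Mark2, a kinase that acts on microtubule-associated proteins, had a cluster of 1764 bases, the broadest of all start clusters, with a coverage of 48972 at chr19:7413822-7415585 on the minus strand. Mark2 has a failed status in shGFP and was not tested below. Its 11 other clusters had a median interior coverage of 419 and a highest of 1125.

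Of the other start clusters of highest coverage, several were the only cluster of their locus. Btbd2, which encodes a BTB domain protein, had a coverage of 31753 at chr10:80118118-80118853 with a fold of 10.92 and no other cluster. Prkaca, the catalytic subunit of protein kinase A, had a coverage of 31672 at chr8:86497099-86497953 with a fold of 6.43 and no other cluster. Tle5, a Groucho-related corepressor listed as Aes, had a coverage of 27725 with a fold of 5.85. Zfp2, a zinc finger gene, had a coverage of 16631, Jph4, a junctophilin, 16353, and Gabbr1, a GABA-B receptor subunit, 12765. The interior clusters of Gabbr1 reached 6193. The 10 highest start clusters had folds between 5.71 and 10.92, and none was absent from the untagged library.

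Bpnt1, which encodes a bisphosphate nucleotidase, was singled out after its values were seen. Its cluster at chr1:187157797-187158341 on the plus strand had a coverage of 8105 and was absent from the untagged library. That is the highest coverage of any absent cluster in the whole list of 16000 such clusters. Its summit is 1977 bases from the locus start, so it lies just inside the window. The next absent start cluster, in Anks1, had a coverage of 2192.

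Most loci had a single start cluster. Of the 723 loci, 610 had 1, 88 had 2, 17 had 3, 5 had 4, 2 had 5 and 1 had 20. The locus with 20 was Dgcr8, whose protein is the RNA-binding partner of Drosha in microRNA processing. Its start clusters lie 683 to 1963 bases from the start, within chr16:18287345-18288693 on the minus strand. Of the 20, 18 overlap another, and they merge into 5 regions. Their coverage ran from 765 to 9056 with a median of 3804, their folds from 3.33 to 23.84, and none was absent from the untagged library. Dgcr8 held 65 further clusters, whose interior median of 6411 lay above that of its start clusters.

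The other loci with the most start clusters had far fewer. Grik5, a kainate receptor subunit, had 5 that did not overlap, with coverages of 193 to 1319 and summits from -12 to 1908 bases. Rnf165, a ubiquitin ligase gene, had 5 that merge into 2 regions, some listed again under the ID 8030462N17Rik. Bbc3, the pro-apoptotic p53 target also called PUMA, had 4 between 1184 and 1832 bases, with coverages of 174 to 3558. Usp40 had the 4 described above, and Tmem39a, LOC668661 and Smurf1 also had 4 each.

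**Figure D3:**
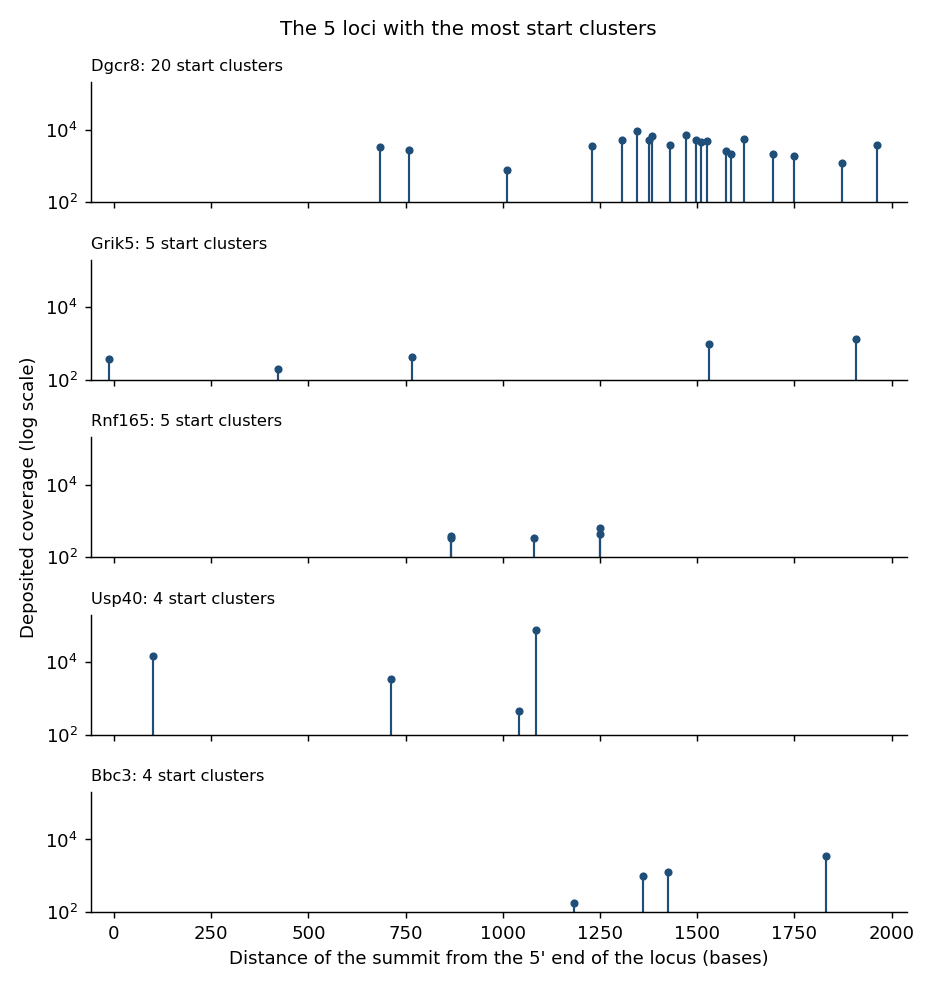
Deposited coverage on a log scale (vertical axis) of each start cluster by its summit distance in bases from the 5′ end of the locus (horizontal axis), for the 5 loci with the most start clusters. Each line with a point is 1 cluster; the 20 of Dgcr8 lie close together between 683 and 1963 bases, and those of the other loci are few and spread out.

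Closest to the locus end were 3 summits. One in LOC100043876, under the ID of the microtubule crosslinking gene Mtcl1, lay 16 bases before the end (distance -16), and one in Grik5 lay at -12. The third, in the kinase gene Sgk1, lay 17 bases inside with a coverage of 200 and a fold of 1.79.

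Genes of RNA-binding proteins were among the loci with start clusters. Of 174 expressed loci matched to 6 lists of such genes, 34 had a start cluster (19.5%), and of the 142 with any cluster this was 23.9%. The shares over all expressed loci were 7.1% and 13.5%. These genes were also more highly expressed, with a median of 36.2 FPKM against 7.56 over all expressed loci, while median lengths were 26.2 and 27.6 kb. At 20 to 50 FPKM the share was 22.2% of 54 RNA-binding protein loci (Wilson 95% interval 13.2 to 34.9) and 11.8% of 1558 loci in all (10.3 to 13.5). At 50 FPKM and over it was 24.2% of 66 (15.5 to 35.8) and 13.8% of 788 (11.6 to 16.4). At 5 to 20 FPKM the shares were 12.2% of 41 (5.32 to 25.5) and 7.51% of 4077 (6.74 to 8.35), and at 1 to 5 FPKM 7.69% of 13 and 3.29% of 3767. The intervals of the 2 sets overlap in each of the 4 ranges, and no test of the list was made.

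**Figure D4:**
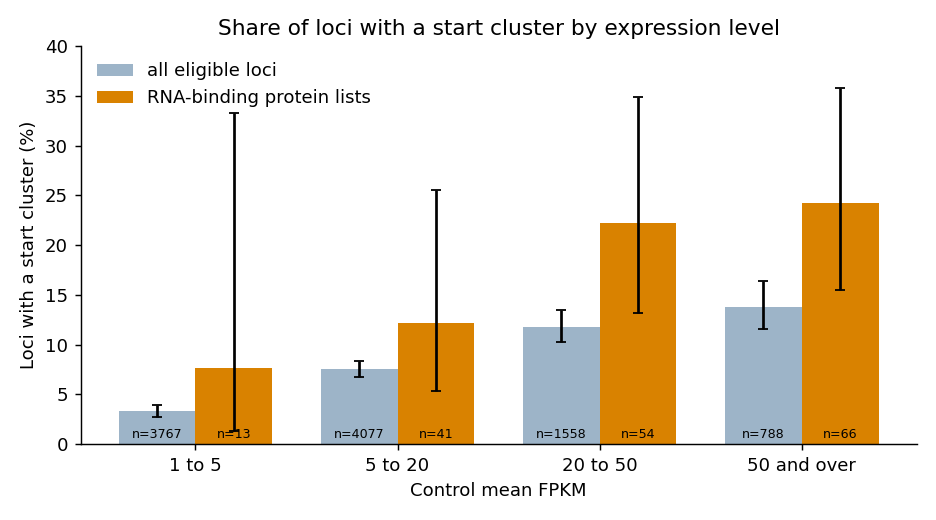
Percent of expressed loci with a start cluster (vertical axis) by control mean FPKM (horizontal axis), for all loci of at least 5 kb (grey) and for the RNA-binding protein lists (orange). Bars start at 0, error bars are Wilson 95% intervals and n is the number of loci; both shares are lowest at 1 to 5 FPKM and highest at 50 and over, where they are 13.8% and 24.2%.

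By function, SR proteins and their relatives, which promote exon inclusion, had a start cluster in 4 of 9 matched loci. These were Srsf6 with a coverage of 9264 and a fold of 4.14, Srsf3 with 4497 and 2.87, Srsf11 with 1702 and 3.66, and Tra2a with 407 and 1.42. A start cluster of coverage 165 with the ID Tra2b lay on a locus listed as Sfrs10. That older name was not matched, so the locus is missing from these counts. The hnRNP proteins, which often act against exon inclusion, had one in 6 of 31 loci: Hnrnpa3, Hnrnpc, Hnrnph1, Hnrnph2, Pcbp4 and Raly. Hnrnph2 was highest with a coverage of 1324 and was absent from the untagged library. Other splicing regulators had one in 7 of 42, among them Matr3 (5520, with a fold of only 1.29) and Rbm39 (3351, with a fold of 1.33). Mbnl3, a muscleblind family member, had a coverage of 1025 and a fold of 4.58.

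Core spliceosome genes had a start cluster in 9 of 37 loci. U2af2, which recognises the polypyrimidine tract, had 3, the highest with a coverage of 1939 and a fold of 1.71. Other mRNA-binding regulators had one in 7 of 41, including the stress granule gene G3bp1 (coverage 2302, fold 3.43), Drosha, Ago1 and Ybx1. The start clusters of Tra2a, Matr3 and Rbm39 just named and the highest of U2af2 thus had folds below 2, so the untagged library held signal of the same order there. The remaining U2af2 start clusters had folds of 7.01 and 6.21, at coverages of 1570 and 696.

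Lists outside RNA-binding proteins had smaller shares or few loci. Polycomb and chromatin regulators had a start cluster in 8 of 50 loci, with coverages of 174 to 960, the highest in the histone demethylase Kdm6a. Pluripotency genes had one in 3 of 25: Stat3 (779), Tbx3 (707) and Sall4 (150). Transcription elongation genes had one in 3 of 33 (Pcf11, Ell and Ccnt2), and p53 response genes in 3 of 18 (Bbc3, Mdm2 and Tigar). Of 9 snoRNA and miRNA host loci, Meg3 (1648) and Nop58 (1401) had one. Known RBFOX2 targets of epithelial and cytoskeletal splicing had one in 2 of 42 (Slk and Ctnnd1), and none of the 11 long enough loci of cytosolic ribosomal proteins had one.

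The test across all genes made no call, for loci with a start cluster or for any other gene. Of the 723 loci, 718 could be tested, and limma on log2(FPKM + 1) called 0 at a Benjamini-Hochberg adjusted p under 0.05, as it did over all 20281 genes (0.0%). The smallest adjusted p over all genes was 0.913, and Rbfox2 itself, with a log2 difference of -1.50 (SE 0.14) and bounds that were separated, had that value. The absence of calls therefore does not show that levels stayed the same. At an unadjusted limma p under 0.05 there were 32 (4.46%), beside 4.48% over all genes tested. The share was 3.24% of all expressed loci and 2.88% of loci with clusters elsewhere only. The difference between these shares was not tested. The median log2 change was 0.00223, with 363 loci above 0 and 355 below, against a median of -0.0024 over all genes. The 2 knockdown hairpins differed: the median against controls was 0.105 for shFox2-1 and -0.126 for shFox2-2, and 0.0818 and -0.0973 over all expressed loci. With 1 pooled value per hairpin, the error in this test comes from differences among hairpins, not among cultures. In bulk RNA, fewer cells of a type and less RNA per cell cannot be told apart.

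A second criterion used the deposited bounds and counted a locus when both knockdown intervals lay wholly above, or wholly below, both control intervals. It was met upwards by 4 loci with a start cluster (0.557%), against 0.218% of all expressed loci. It was met downwards by 2 (0.279%), against 0.099%. These are 6 loci in all (0.836%, against 0.317% of all expressed loci). The share was 0.392% of loci with clusters elsewhere only and 0.167% of expressed loci with none. The part of expression level in these shares was not tested. When a status of OK was required in every hairpin, 5 loci with a start cluster remained (0.696%), 3 higher and 2 lower. The share over all expressed loci was not computed for that setting. Leaving a hairpin out asks fewer intervals to be separated. Without shLuc the count was 16 (2.23%, against 0.792% of all expressed loci), and without shGFP 19 (2.65%, against 1.01%). Without shFox2-1 it was 31 (4.32%, against 2.68%), with 4 higher and 27 lower. Without shFox2-2 it was 79 of the 718 loci, against 8.55% of all expressed loci, with 65 higher and 14 lower, so the prevailing direction turned with the knockdown hairpin that was kept.

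Xkr5, a member of the XK membrane protein family, had the largest difference of the 6. It was at 4.42 FPKM in shLuc and 4.81 in shGFP, and at 2.30 in shFox2-1 and 2.23 in shFox2-2. Both knockdown values lay below both controls and the bounds did not overlap, with a log2 difference of -0.78 (SE 0.16, limma adjusted p = 0.978). Its locus had 2 start clusters, of coverage 2403 and 509, and no other cluster. Map1b, a microtubule-associated protein, had control values of 8.87 and 9.11 FPKM and knockdown values of 7.02 and 6.40. Its difference was -0.37 (SE 0.14), and its single cluster had a coverage of 150 and a fold of 1.34.

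Mdm2, the ubiquitin ligase that acts on p53, was at 36.1 and 38.1 FPKM in shLuc and shGFP and at 55.6 and 49.5 in shFox2-1 and shFox2-2. Both knockdown values lay above both controls, with a log2 difference of 0.49 (SE 0.12, limma adjusted p = 0.978). Its start cluster had a coverage of 892 and a fold of 4.25, beside 5 other clusters. Sar1a, a small GTPase of vesicle coats, measured 36.8 and 33.5 FPKM under the control hairpins against 50.1 and 47.6 under the Rbfox2 hairpins. Its start cluster had a coverage of 150 and a fold of 1.34. Of the other p53 response genes with a start cluster, Bbc3 had control values of 9.41 and 11.4 and knockdown values of 9.10 and 10.4, so its groups overlap.

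Sall4, a zinc finger transcription factor of ES cells, measured 71.0 FPKM in shLuc, 72.3 in shGFP, 91.4 in shFox2-1 and 87.7 in shFox2-2, a log2 difference of 0.32 (SE 0.10). Its start cluster had a coverage of 150 and was absent from the untagged library. Ash2l, a subunit of histone H3 lysine methyltransferase complexes, measured 162.9, 177.4, 208.4 and 212.3 in the same order, a difference of 0.31 (SE 0.10). Its start cluster had a coverage of 209 and a fold of 7.74. After the hairpins were centred on the median expressed gene, the bounds of Ash2l were no longer separated, and those of the other 5 still were. Centring also brought in 4 loci, all higher: Jarid2, Drosha, Slc29a1 and Ube2a, which made 9 in all (1.25%, against 0.366% of all expressed loci).

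**Figure D5:**
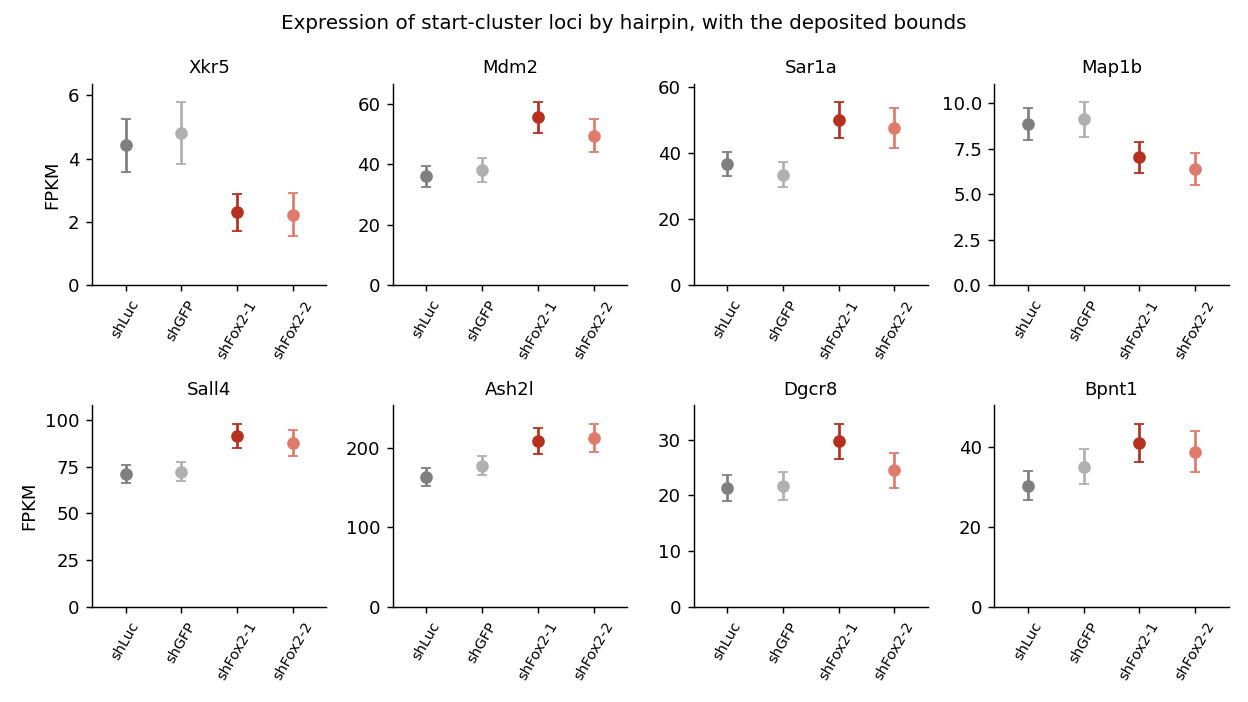
FPKM (vertical axis, from 0) in each hairpin (horizontal axis) for the 6 loci whose bounds were separated and for Dgcr8 and Bpnt1. Points are the deposited pooled values, bars the deposited lower and upper bounds, grey the control hairpins and red the Rbfox2 hairpins; Xkr5 and Map1b lie lower in both knockdowns, the next 4 lie higher, and for Dgcr8 and Bpnt1 the bounds of at least 1 knockdown hairpin overlap those of a control.

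Start clusters of high coverage were on loci that moved either way. Of the 112 tested loci with a start cluster of coverage at least 1000, 58 lay above 0 and 54 below, and only Xkr5 met the bounds criterion. Dgcr8, with 20 start clusters, had control values of 21.3 and 21.7 FPKM and knockdown values of 29.7 and 24.5, a log2 difference of 0.31 (SE 0.14, limma adjusted p = 0.978). B3glct stayed between 2.53 and 2.79 FPKM in all 4 hairpins. Jph4 had control values of 4.35 and 4.39 and was at 1.75 in shFox2-1 and 3.64 in shFox2-2, so the knockdown hairpins differed in size. Meg3, a long noncoding RNA, had control values of 42.9 and 33.1 and lower knockdown values of 24.5 and 27.4 (limma adjusted p = 0.978). Tbx3, a T-box factor of pluripotency, had control values of 5.10 and 5.24 and knockdown values of 14.5 and 5.51, so its high value is that of shFox2-1 alone.

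Among the 34 RNA-binding protein loci with a start cluster, 19 lay above 0 and 15 below, with a median log2 difference of 0.01. None of them had an unadjusted p under 0.05 or met the bounds criterion on the values as deposited, and after centring Drosha met it. The 4 SR protein loci counted above all lay above 0, with a median of 0.09. Srsf3 had control values of 82.8 and 83.6 FPKM and knockdown values of 102.4 and 91.9 (log2 difference 0.22, SE 0.11). Srsf6 had 48.4 and 51.0 against 65.6 and 45.9, so its groups overlap. In Srsf11, with 55.9 and 55.4 against 67.1 and 48.6, the shFox2-2 value also lay below both controls. Of the 8 chromatin regulator loci, 7 lay above 0, with a median of 0.1. Over all 718 tested loci with a start cluster, 363 lay above 0. In Kdm6a (17.6 and 16.7 FPKM in the controls) shFox2-1 was at 23.0 and shFox2-2 at 15.3. Ino80 was likewise above both controls only in shFox2-1, and Jarid2 was above them in both knockdown hairpins. Whether the loci of a list moved together was not tested. An FPKM sums all isoforms of a locus, so a change in which exons are used need not change it.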

How the data were processed

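The 2 deposited files are a gene table with 1 FPKM, a lower and an upper bound and a status per hairpin, pooled by the authors over 2 libraries, per the file headers, and a list of iCLIP clusters with coverage, q-value and fold relative to the untagged control, already filtered for enrichment by the authors. TopHat2 2.0, Cufflinks 2.1.1 and the build mm9 are named in the submitters' processing notes; the cluster caller and the treatment of PCR copies are not given in the sources used here. Cluster coverage, fold and q-value are the authors' and served only to describe clusters within the list.

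The rule was applied with Python 3.11.15 and pandas 2.3.3. Symbols were matched through RefSeq tables, since the table uses older names, and some names, such as Sfrs10, stayed unmatched. In R 4.3.3, limma 3.58.1 with its trend option was fitted to log2(FPKM + 1), 2 knockdown against 2 control hairpins, over 20281 genes without a failed status and not at 0 in every hairpin, with Benjamini-Hochberg adjustment; this scale understates changes of low genes. The fit was tested on simulated data. Intervals are Wilson for shares of clusters and loci, exact binomial for the motif share and the pooled density ratio, and Poisson for densities, and cover counting error only.

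Named genes were the 10 clusters of highest coverage, the 5 loci with most start clusters, RNA-binding protein genes (up to 12 by coverage), up to 3 loci of each other list, loci with separated bounds and the 3 summits closest to the end; others are named after their values were seen. The members and gene lists were chosen with earlier results of these data known. Alternatives were windows, locus filters, strand, cluster filters, pseudocounts, scaling, status and left-out hairpins. One of the 6 RNA-binding protein lists is not reported here on its own.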

Additional observations from a re-analysis of the deposited data

How the results depend on the processing

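The number of start clusters was 373 with a window of 1 kb, 146 with 500 bases, 2839 with 5 kb and 517 in loci of at least 20 kb, and lay between 688 and 955 under the other 6 alternatives. The pooled density ratio of 1.04 was 0.864, 0.651 and 1.41 with windows of 1 kb, 500 bases and 5 kb, 0.95 at 5 FPKM or more, 0.962 and 0.901 in loci of at least 10 and 20 kb, 0.965 for clusters of at least the median coverage, 0.84 with the RefSeq strand and 0.747 with clusters spread evenly within each locus. Counting each locus once per zone gave 3.88, because a long interior then counts as 1. Its direction is therefore not settled by the pooled value. The interior median coverage was 348 without overlapping clusters, and the interior median fold was 9.16 in loci with both kinds and 11.9 at 5 FPKM or more; the cause was not tested. limma called 0 loci with a start cluster under each alternative run (over all genes, 1 after centring and 1 among genes of at least 1 FPKM), with 5 to 121 at an unadjusted p under 0.05 (0.696% to 16.9%, against 3.55% to 14.7% of all genes). Leaving out 1 hairpin gave 16 to 79 loci with separated bounds against 6 (80 to 863 against 32 over all expressed loci), mostly lower without shFox2-1 (27 of 31) and mostly higher without shFox2-2 (65 of 79), and medians of the log2 change from -0.126 to 0.105. No paired analysis was possible because the deposited columns pool the 2 libraries of each hairpin. Even spreading, the gene ID requirement, allowing further loci and leaving out the 5 loci with most start clusters were chosen after seeing the data. The iCLIP values rest on 1 library each.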
